A study of Mus musculus with 6 samples.

Results

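Complement is a set of plasma and cell surface proteins that tag microbes, dying cells and debris for removal. The present account concerns 9 of its genes in CFU-Fs, the colonies that single adherent marrow stromal cells form in culture: the 3 chains of C1q (*C1qa*, *C1qb*, *C1qc*), the central proteins *C3* and *C4b*, properdin (*Cfp*), the C1 inhibitor (*Serping1*) and the receptors *C3ar1* and *C5ar1*. They were taken by name as components and receptors known to be made by macrophages or by stromal cells, and all 9 were among the 14735 genes of the expression table. Of 57 complement genes listed in 7 roles, 33 were measured. The others were not found by name in the expression table, which kept genes reaching 10 reads in a library.

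Whole CFU-F colonies were picked at day 10 of low-oxygen culture from the marrow of C57BL/6 mice that carried *Col10a1Cre* with the *Rosa26 fs-tdTomato* reporter and were 2 months old, and RNA of each colony was sequenced. The comparison has 3 tdTOMATO+ CFU-Fs, which descend from cells that had expressed Cre from the *Col10a1* promoter, a promoter active in hypertrophic chondrocytes, and 3 tdTOMATO- CFU-Fs, which did not show the reporter. Both groups carry the same Cre and reporter alleles, so they were set apart by the reporter and not by genotype or treatment. The paper reports that tdTOMATO+ colonies were on average larger than tdTOMATO- colonies. Whether the groups differ only in the history of the founding cell was not tested. Whether separate mice gave the colonies is not stated in the sources used here, and a p-value measures the spread between colonies. Between 24085516 and 31046589 reads fell in genes per library.

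In tissues, C1q is made chiefly by macrophages, and its A, B and C chains assemble into the molecule that starts the classical pathway by binding antibody or altered surfaces. C1q carries the proteases C1r and C1s, which cut C4 and C2 so that C3 is cleaved. Properdin stabilizes the enzyme of the alternative pathway, the C1 inhibitor blocks C1r and C1s, and C3ar1 and C5ar1 are receptors on myeloid cells for the small fragments released from C3 and C5. Fibroblasts and other stromal cells are known to make C1r, C1s, C3, C4 and the C1 inhibitor.

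The 3 C1q genes lie side by side on the minus strand of chromosome 4 within 18675 bp of GRCm38: *C1qa* at chr4:136895917-136898803, *C1qc* at chr4:136889804-136893065 and *C1qb* at chr4:136880129-136886187. The other members are spread over the genome, all on the minus strand as well, with *C3* at chr17:57203970-57228136, *C4b* at chr17:34728380-34743882, *C3ar1* at chr6:122847138-122856161, *C5ar1* at chr7:16246743-16259540, *Serping1* at chr2:84765387-84775444 and *Cfp* at chrX:20925454-20931555. The values count reads over all exons of a gene. The one annotated gene that overlaps a member is the microRNA gene *Mir6978*, inside *C3* on the same strand.

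RefSeq promoter windows of GRCm38.p6, which run from 250 bases before to 50 bases after a gene's start, were found for 6 of the 9 members, namely *C1qb*, *C1qc*, *C3ar1*, *C5ar1*, *C3* and *Cfp*. Contrasting windows are shown because *C1qb* and *C1qc* are neighbours that were higher in every tdTOMATO+ colony, while *C3* was not. Capitals mark matches to GAGGAA (the core bound by the myeloid factor PU.1), TTGCNNAA (C/EBP) or TATAAA (the TATA box), searched on both strands.
C1qb, chr4:136886151-136886450, minus strand: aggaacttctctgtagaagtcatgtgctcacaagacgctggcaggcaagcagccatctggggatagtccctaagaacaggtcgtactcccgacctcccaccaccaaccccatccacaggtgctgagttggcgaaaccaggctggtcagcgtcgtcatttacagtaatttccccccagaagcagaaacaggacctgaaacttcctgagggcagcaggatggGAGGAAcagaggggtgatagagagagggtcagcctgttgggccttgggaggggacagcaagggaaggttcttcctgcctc
C1qc, chr4:136892865-136893164, minus strand: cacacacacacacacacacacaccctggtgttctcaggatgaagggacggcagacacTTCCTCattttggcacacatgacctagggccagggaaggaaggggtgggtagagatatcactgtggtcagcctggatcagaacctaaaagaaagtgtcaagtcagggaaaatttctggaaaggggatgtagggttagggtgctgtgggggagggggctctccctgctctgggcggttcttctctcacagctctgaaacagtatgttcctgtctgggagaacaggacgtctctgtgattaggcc
C3, chr17:57228087-57228386, minus strand: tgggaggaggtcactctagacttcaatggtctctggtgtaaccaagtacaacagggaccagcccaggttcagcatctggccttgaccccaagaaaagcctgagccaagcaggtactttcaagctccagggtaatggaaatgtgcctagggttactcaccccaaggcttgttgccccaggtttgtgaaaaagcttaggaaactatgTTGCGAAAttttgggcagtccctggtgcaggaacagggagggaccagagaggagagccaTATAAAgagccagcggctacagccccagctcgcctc
The *C1qb* window held GAGGAA at bases 221 to 226, and the *C1qc* window held it on the opposite strand, as TTCCTC, at bases 58 to 63. The *C3* window held the C/EBP letters at bases 206 to 213 and TATAAA at bases 265 to 270, and no GAGGAA. This TATAAA begins 14 bases after the annotated start of *C3*, not before it. Of the windows not shown, *Cfp* had 2 matches to GAGGAA, *C3ar1* had 1 to TATAAA, and *C5ar1* had no match to any of the 5 motifs searched. GAGGAA occurs in 28.3% of 32851 mouse promoter windows of this length, TTGCNNAA in 10.8% and TATAAA in 13.6%, so a match is common. The gamma-activated site TTCNNNGAA, present in 8.30% of windows, and the interferon-stimulated response element, present in 3.44%, matched in none of the 6. The matches describe the letters only.

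Of these genes, 5 were called higher in tdTOMATO+ colonies and none was called lower: *C1qa*, *C1qb*, *C1qc*, *C3ar1* and *C5ar1*, by 1.75-fold to 2.21-fold. *Cfp* and *C4b* were above every tdTOMATO- colony in all 3 tdTOMATO+ colonies but did not pass the test, and the groups overlapped for *C3* and *Serping1*. The comparison used a two-sided limma test of log2(normalized count + 1), and a gene was called at an adjusted p under 0.05 after Benjamini-Hochberg correction over all 14735 genes. By this rule 1.20% of all genes were called higher and 0.143% lower, against 5 and 0 of the 9 members. The members were chosen with earlier results of these data known, so these shares are no independent test. At an unadjusted limma p under 0.05, 7 members were higher and 0 lower, where 7.53% of all genes were higher and 4.79% lower, and neither edgeR nor DESeq2 called a member lower. Every tdTOMATO+ value lay above every tdTOMATO- value for 9.89% of all genes, and for 7 of the 9 members. The median log2 fold change was 0.83 over the members and -0.00 over all genes. In RNA from whole colonies, fewer cells of a type and less RNA per cell cannot be told apart.

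**Figure D1:**
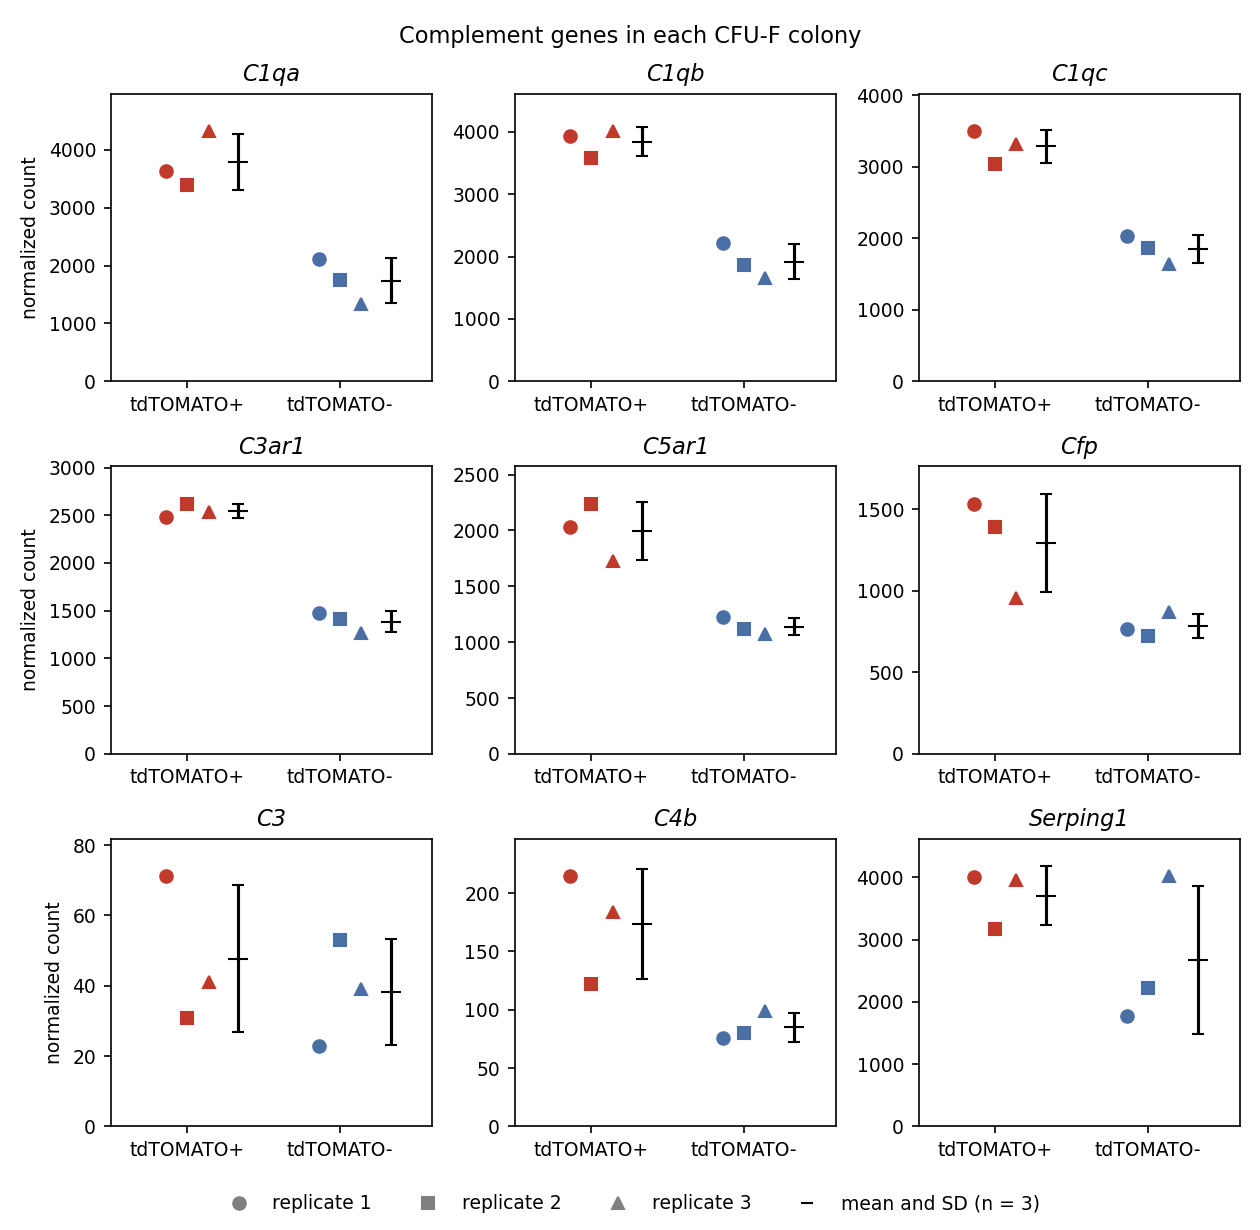
Normalized count (vertical axis, from 0) of the 9 complement genes in each tdTOMATO+ (red, left) and tdTOMATO- (blue, right) CFU-F, with the mean and SD of 3 colonies beside the points. The groups are apart for C1qa, C1qb, C1qc, C3ar1, C5ar1, Cfp and C4b, and overlap for C3 and for Serping1, where tdTOMATO- replicate 3 reached 4015.

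*C1qa* and *C1qb* showed the largest fold changes of the called members. *C1qa* had 3636, 3400.3 and 4327 normalized counts in tdTOMATO+ colonies, against 2119, 1748 and 1342 in tdTOMATO- colonies. The lowest tdTOMATO+ value was thus well above the highest tdTOMATO- value, and the tdTOMATO- colonies were spread 1.58-fold between their highest and lowest. The log2 fold change of *C1qa* was 1.14 (SE 0.18, n = 3 each), or 2.21-fold, with a limma adjusted p of 0.0391.

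*C1qb* had 3942, 3574 and 4014 normalized counts in tdTOMATO+ colonies, against 2220.1, 1873 and 1659 in tdTOMATO- colonies. The tdTOMATO+ values lay close together, and each was higher than any tdTOMATO- value. The log2 fold change was 1.01 (SE 0.11), or 2.02-fold, with a limma adjusted p of 0.0135. *C1qc* had 3503, 3040.1 and 3321 normalized counts in tdTOMATO+ colonies, against 2038, 1862 and 1647 in tdTOMATO- colonies. Its log2 fold change was 0.83 (SE 0.10), or 1.78-fold, with a limma adjusted p of 0.0135.

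The 3 chains, which join in equal numbers in the assembled protein, kept similar read counts in all 6 colonies. The ratio of *C1qc* to *C1qb* counts lay between 0.827 and 0.994, that of *C1qa* to *C1qb* between 0.809 and 1.08, and that of *C1qa* to *C1qc* between 0.815 and 1.30. Per kilobase of exon, the mean level of *C1qa* was 3642 normalized counts in tdTOMATO+ colonies and 1670 in tdTOMATO- colonies. On this scale *C1qb* stood at 3533 in tdTOMATO+ and 1762 in tdTOMATO- colonies, and *C1qc*, whose exons are longer, at 1703 in tdTOMATO+ and 957 in tdTOMATO- colonies. These were the highest levels per kilobase of the 9 members, save that *Serping1* exceeded *C1qc* in tdTOMATO- colonies, with 1594 in tdTOMATO+ and 1149 in tdTOMATO- colonies.

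Of the 9 members *C3ar1* had the smallest SE. This receptor for the C3 fragment had 2477, 2622 and 2536 normalized counts in tdTOMATO+ colonies, against 1476, 1411 and 1267 in tdTOMATO- colonies. Its highest value was 1.06 times its lowest in tdTOMATO+ colonies and 1.16 times in tdTOMATO- colonies, and the groups were well apart. Its log2 fold change was 0.88 (SE 0.08), or 1.84-fold, with a limma adjusted p of 0.0135. *C5ar1*, the chemotactic receptor for the C5 fragment, had 2030.2, 2240.0 and 1725 normalized counts in tdTOMATO+ colonies, against 1224, 1118 and 1071 in tdTOMATO- colonies. Its log2 fold change was 0.81 (SE 0.11), or 1.75-fold, with a limma adjusted p of 0.0193. The ratio of *C3ar1* to *C5ar1* counts lay between 1.17 and 1.47 in the 6 colonies. Per kilobase of exon, *C5ar1* stood at 778 normalized counts in tdTOMATO+ colonies and 443 in tdTOMATO- colonies, and *C3ar1* at 591 in tdTOMATO+ and 322 in tdTOMATO- colonies.

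*Cfp*, the gene of properdin, had 1535, 1394 and 958 normalized counts in tdTOMATO+ colonies, against 765, 726 and 868 in tdTOMATO- colonies. The third tdTOMATO+ colony was only just above the highest tdTOMATO- colony. Its log2 fold change was 0.70 (SE 0.18), or 1.62-fold, with an interval of 0.27 to 1.12 and a limma adjusted p of 0.158. Without tdTOMATO+ replicate 3 the log2 fold change was 0.90 and the limma adjusted p was 0.0334, while it lay between 0.0334 and 0.445 over the 6 leave-one-out fits.

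*C4b*, the gene of C4, had 214, 122 and 184 normalized counts in tdTOMATO+ colonies, against 75.6, 80.0 and 99.2 in tdTOMATO- colonies. The groups did not overlap, and the tdTOMATO+ colonies were spread 1.76-fold. Its log2 fold change was 0.99 (SE 0.24), or 1.99-fold, with an interval of 0.43 to 1.55 and a limma adjusted p of 0.122. *C4b* has a nearly identical copy, *C4a*, and the authors kept only reads with a single location, so its count is uncertain. *C4a* had at most 10.0 normalized counts in any colony. DESeq2 on the recovered reads called 7 members higher, adding *C4b* (adjusted p = 0.00979) and *Cfp* (adjusted p = 0.00498), where it called 3.38% of all genes higher. edgeR called the same number as limma, 5, and 1.11% of all genes, with adjusted p of 0.121 for *C4b* and 0.125 for *Cfp*.

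*C3*, on which all the pathways converge, was present at a low level. It had 71.1, 30.9 and 41.2 normalized counts in tdTOMATO+ colonies, against 22.9, 53.0 and 39.1 in tdTOMATO- colonies. The groups overlapped, with the highest value in a tdTOMATO+ colony and the lowest in a tdTOMATO- colony. These rest on 69, 36 and 41 reads in tdTOMATO+ colonies and on 20, 55 and 39 reads in tdTOMATO- colonies, and the exact Poisson 95% interval of the smallest, 12.2 to 30.9 reads, covers counting error only. The log2 fold change was 0.30 (SE 0.41), with a limma adjusted p of 0.854 and an interval that ran from 0.632-fold to 2.40-fold. It was -0.023 without tdTOMATO+ replicate 1 and -0.018 without tdTOMATO- replicate 1. Per kilobase of exon *C3* stood at 9.28 normalized counts in tdTOMATO+ colonies and 7.45 in tdTOMATO- colonies, below every other member. The next lowest was *C4b*, at 30.4 in tdTOMATO+ and 14.9 in tdTOMATO- colonies.

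*Serping1* had 4004, 3163 and 3949 normalized counts in tdTOMATO+ colonies, against 1775, 2221 and 4015 in tdTOMATO- colonies. Only the third tdTOMATO- colony reached the tdTOMATO+ range, and it was the highest of all 6. The log2 fold change was 0.55 (SE 0.30), with a limma adjusted p of 0.558 and an interval from 0.875-fold to 2.46-fold. Without tdTOMATO- replicate 3 it was 0.89 with a limma adjusted p of 0.0628, the lowest of the 6 leave-one-out fits, which reached 0.779. The ratio of *C1qb* to *Serping1* counts was 0.985, 1.13 and 1.02 in tdTOMATO+ colonies, against 1.25, 0.843 and 0.413 in tdTOMATO- colonies, so the tdTOMATO- colonies differed from each other by more than the groups did.

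The calls depended on single colonies while the directions of the 5 called genes did not. In the 6 leave-one-out fits the log2 fold change stayed between 0.97 and 1.30 for *C1qa*, 0.91 and 1.12 for *C1qb*, 0.75 and 0.91 for *C1qc*, 0.82 and 0.93 for *C3ar1* and 0.72 and 0.91 for *C5ar1*. Without tdTOMATO+ replicate 2, no member was called by limma, though 7 had an unadjusted p under 0.05, and 1 gene of the whole table was called higher. Without tdTOMATO+ replicate 1, or without tdTOMATO- replicate 2, the one member called was *C3ar1*. *C1qa* missed the threshold without tdTOMATO+ replicate 3 as well (limma adjusted p = 0.110), and so did *C5ar1* without tdTOMATO- replicate 3 (limma adjusted p = 0.0551). With no mean-variance trend in limma, no member was called, 7 had an unadjusted p under 0.05, and 1 gene of the whole table was called higher.

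Among the 33 complement genes measured, 7 were called higher and none lower, 27 of the log2 fold changes were above 0, and the median was 0.57. The calls fell in 2 of the 7 roles. Of 8 genes of the classical pathway, the 3 C1q chains were called, and the role's median was 0.91. Of 8 receptor genes 4 were called, the median was 0.84, and in all 8 each tdTOMATO+ value lay above each tdTOMATO- value. Beside *C3ar1* and *C5ar1* these were *Itgam* and *Itgb2*, whose products pair as complement receptor 3, which binds cleaved C3 on a target's surface. *Itgam* had 4318, 4788 and 3474 normalized counts in tdTOMATO+ colonies, against 2567, 2551 and 2458 in tdTOMATO- colonies (log2 0.72, SE 0.11, limma adjusted p = 0.0335). *Itgb2* had 2584, 2554 and 2031 normalized counts in tdTOMATO+ colonies, against 1461, 1381 and 1593 in tdTOMATO- colonies (log2 0.69, SE 0.11, limma adjusted p = 0.0335). Each of these 2 calls held in 1 of the 6 leave-one-out fits, in which the limma adjusted p reached 0.123 for *Itgam* and 0.158 for *Itgb2*.

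**Figure D2:**
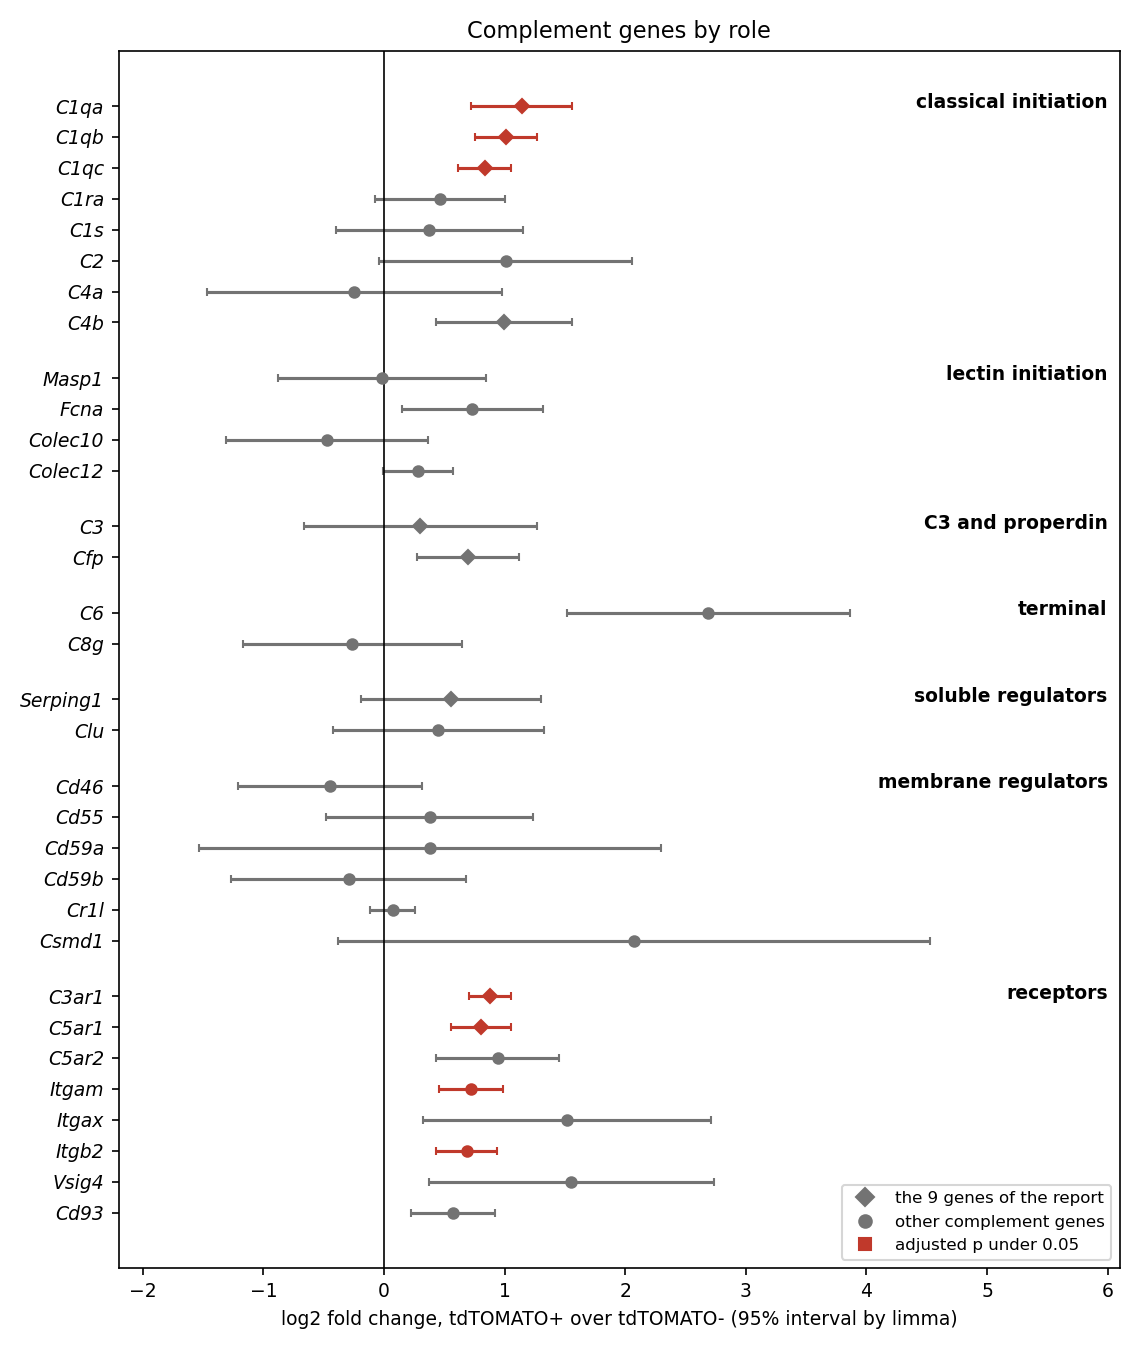
Log2 fold change of tdTOMATO+ over tdTOMATO- colonies (horizontal axis) with its 95% interval from limma for 32 of the 33 complement genes measured, grouped by role from top to bottom, with diamonds for the 9 genes described and red for an adjusted p under 0.05. The 7 called genes are the 3 C1q chains and 4 receptors, and the widest intervals belong to Csmd1 and Cd59a.

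Beyond these 7, no complement gene was called by limma or edgeR. DESeq2 called 12 of the 33 higher and none lower, where it called 3.38% of all genes higher. In limma 15 had an unadjusted p under 0.05, all of them higher, against the 7.53% of all genes given above. Of the classical proteases, *C1s* had 935, 945 and 1859 normalized counts in tdTOMATO+ colonies, against 759, 823 and 1200 in tdTOMATO- colonies (log2 0.38, limma adjusted p = 0.731). *C1ra*, named after its values were seen, had 824, 851 and 1283 in tdTOMATO+ colonies, against 545, 754 and 837 in tdTOMATO- colonies (log2 0.46, limma adjusted p = 0.484). The groups overlapped for both genes, whose products circulate bound to C1q. *C2* had 59.8, 41.2 and 147 normalized counts in tdTOMATO+ colonies, against 32.1, 41.5 and 32.1 in tdTOMATO- colonies, so that 1 colony carried most of the difference (log2 1.01, limma adjusted p = 0.425). Of 4 genes of lectin initiation, the ficolin gene *Fcna* stood at 0.73 on the log2 scale (limma adjusted p = 0.283) and the collectin gene *Colec12* at 0.28 (limma adjusted p = 0.424).

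The membrane regulator *Cr1l*, known as Crry in mice, stood near 0 at a log2 fold change of 0.07 (SE 0.08, limma adjusted p = 0.811, interval -0.11 to 0.26), and *Csmd1* had 2.07 with tdTOMATO- colonies spread 34.1-fold (limma adjusted p = 0.490). Of the terminal components, *C6* was low, with 23.7, 16.3 and 11.1 normalized counts in tdTOMATO+ colonies, against 2.29, 1.93 and 1.00 in tdTOMATO- colonies. Its groups did not overlap, and its log2 fold change of 2.69 (SE 0.50) missed the threshold in limma (adjusted p = 0.0553). For *C8g* the log2 difference was -0.26 (limma adjusted p = 0.869).

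Macrophage genes moved with the C1q chains and the receptors. Of 19 macrophage genes, 13 were called higher in tdTOMATO+ colonies, their median log2 fold change was 0.77, and none was at 0 in any colony. Their summed level was 76588 to 80036 normalized counts in tdTOMATO+ colonies, against 43559 to 45434 in tdTOMATO- colonies. The log2 fold change was 1.05 for *Cd68*, 0.67 for *Csf1r*, the receptor for macrophage colony-stimulating factor, and 0.83 for *Emr1*, the gene of F4/80. Of 15 stromal genes 6 had a log2 fold change above 0 and 9 below. limma and edgeR called none, DESeq2 called *Runx2* higher (log2 0.43, adjusted p = 0.00664), and 1 in each direction had an unadjusted limma p under 0.05. Their median log2 fold change was -0.19, and the summed level was 1069981 to 1337363 in tdTOMATO+ colonies, against 1280001 to 1460635 in tdTOMATO- colonies. *Col1a1* and *Pdgfra*, which mark the stromal cells typical of a CFU-F, had log2 fold changes of -0.32 and -0.19, with overlapping groups. *Runx2*, an osteogenic transcription factor named after its values were seen, was the stromal gene without overlap, with a limma adjusted p of 0.0921. Of 10 interferon-induced genes limma and edgeR called 0 and DESeq2 1, 2 had an unadjusted limma p under 0.05, and the median was 0.63. Of 8 neutrophil genes 2 were measured, and 0 were called by limma, edgeR or DESeq2 or had an unadjusted p under 0.05. The part of macrophage RNA in the complement values was not tested beyond the ratios that follow.

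Each member was therefore set against the median of the 19 macrophage genes within the same colony, as a log2 ratio. *C3ar1* stood 0.58, 0.60 and 0.72 above that median in tdTOMATO+ colonies, against 0.57, 0.49 and 0.34 in tdTOMATO- colonies. It was the one member of the 9 without overlap on this scale, by a difference of 0.17 (two-sided exact permutation p = 0.1, the smallest that 3 colonies against 3 allow). *C1qa* stood 1.14, 0.98 and 1.49 above the median in tdTOMATO+ colonies, against 1.09, 0.80 and 0.43 in tdTOMATO- colonies, a difference of 0.43 (exact permutation p = 0.2). For *C1qb* the difference was 0.30 (exact permutation p = 0.2), for *C1qc* 0.12 (p = 0.5), for *C5ar1* 0.09 (p = 0.3) and for *Cfp* -0.02 (p = 1.0). These p-values are not adjusted for the 9 ratios computed. With Benjamini-Hochberg correction over the 9 members, the permutation p of *C3ar1* was 0.60. The share of all genes without overlap on this scale was not computed, so its lack of overlap is not read as a result. Against a single macrophage gene the size and sign varied. The difference for *C3ar1* was -0.17 against *Cd68*, 0.21 against *Csf1r* and 0.05 against *Emr1*, so that it turned round with *Cd68*. For *C1qb* it was -0.04 against *Cd68*, 0.34 against *Csf1r* and 0.18 against *Emr1*. For *C1qc* it was -0.21 against *Cd68*, 0.17 against *Csf1r* and 0.00 against *Emr1*. The *C1qc* ratio to *Cd68* was lower in every tdTOMATO+ colony, with 0.26, 0.20 and 0.19 in tdTOMATO+ colonies, against 0.57, 0.41 and 0.31 in tdTOMATO- colonies (two-sided exact permutation p = 0.1). In the other direction, the ratios of *C1qa* (difference 0.47), *C1qb* and *C3ar1* to *Csf1r* were higher in every tdTOMATO+ colony. So was that of *C1qb* to *Emr1* (two-sided exact permutation p = 0.1 for each).

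**Figure D3:**
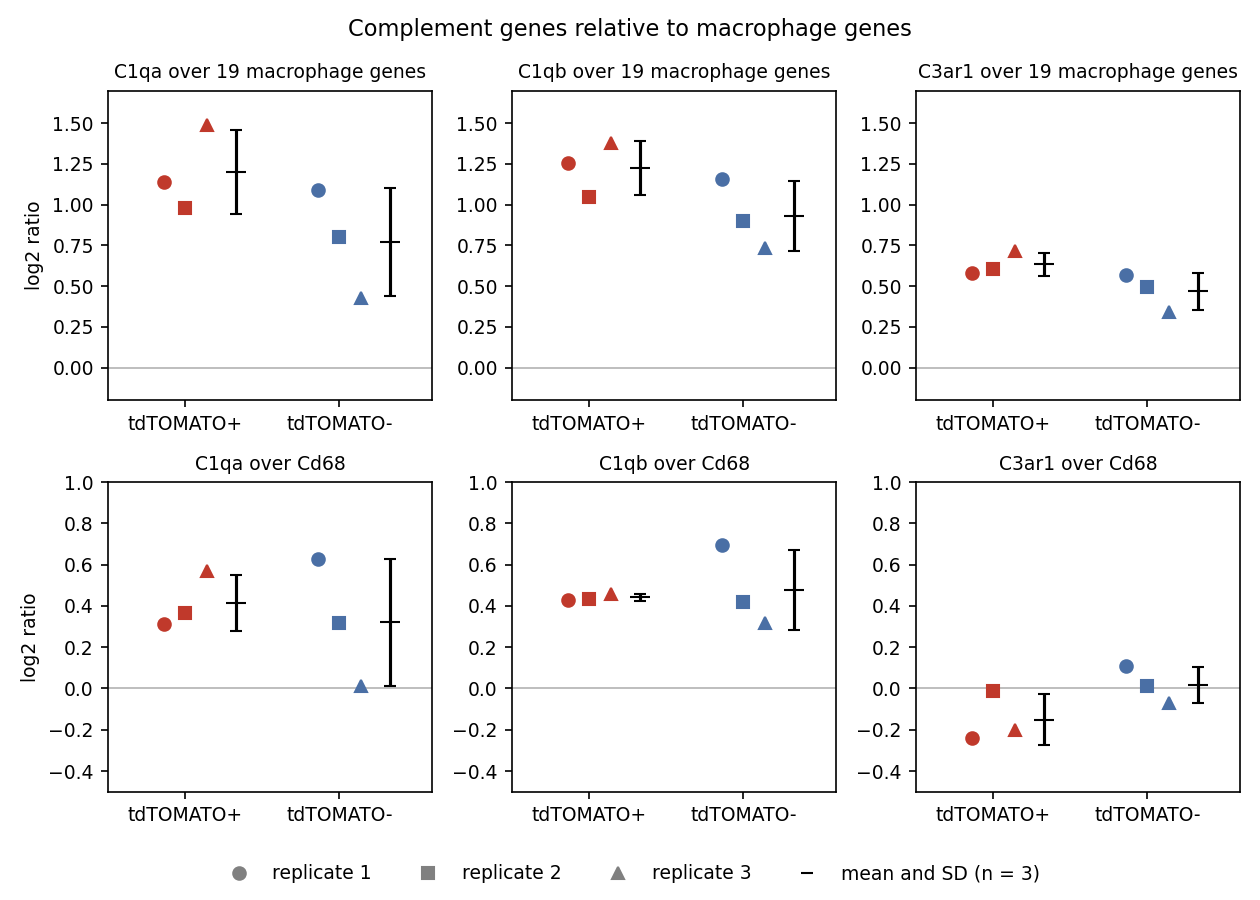
Log2 ratio (vertical axis) of C1qa, C1qb and C3ar1 to the median of 19 macrophage genes (upper row) and to Cd68 alone (lower row) in each tdTOMATO+ (red, left) and tdTOMATO- (blue, right) CFU-F, with the mean and SD of 3 colonies. In the upper row only C3ar1 is without overlap between the groups, and in the lower row all 3 genes overlap.

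The members linked with stroma were set against the median of the 15 stromal genes in the same way. *C4b* was higher by 0.81 in tdTOMATO+ colonies (exact permutation p = 0.2), *Serping1* by 0.37 (p = 0.5) and *C3* by 0.12 (p = 0.8). None of these reached the smallest p of 0.1. Against the mean of the stromal list the differences were 1.20 for *C4b*, 0.77 for *Serping1* and 0.52 for *C3*, so their size depends on the summary used. The stromal median of a colony was on average 0.18 higher in tdTOMATO+ colonies, while the median of the 15 log2 fold changes was -0.19. The stromal median itself ranged from 11.02 to 12.24 on the log2 scale in tdTOMATO+ colonies and from 10.40 to 11.79 in tdTOMATO- colonies. The macrophage median ranged from 10.59 to 10.76 in tdTOMATO+ and from 9.96 to 9.97 in tdTOMATO- colonies. Over the stromal median the *C3* ratio had an SD of 0.15 in tdTOMATO+ and 0.34 in tdTOMATO- colonies. Over the macrophage median its SD was 0.62 and 0.59. For *C4b* in tdTOMATO- colonies the SD was 0.65 over the stromal and 0.21 over the macrophage median. In tdTOMATO+ colonies the *C4b* SD was 0.42 over the stromal and 0.47 over the macrophage median. For *Serping1* the SD over the stromal median was 0.56 in tdTOMATO+ and 0.52 in tdTOMATO- colonies. Over the macrophage median it was 0.26 and 0.61. The 3 genes thus showed no common pattern, and *C3* rests on only 20 to 69 reads.

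Within the tdTOMATO- group, some of the components split by colony. *C1qa*, *C1qb*, *C1qc*, *C3ar1* and *C5ar1* were all highest in replicate 1 and lowest in replicate 3. *Serping1*, *C4b*, *C1ra*, *C1s* and *Colec12* were all highest in replicate 3 and lowest in replicate 1, by 2.26-fold for *Serping1*. Over all 33 complement genes, 8 had the first pattern, *Itgam*, *C6* and *Cd46* included, and 10 had the second, among them the receptor genes *C5ar2* and *Vsig4*. The rest had neither pattern, the members *Cfp* and *C3* among them. *Cfp* was highest in replicate 3 and lowest in replicate 2, as was *Itgb2*, the partner of *Itgam*. *C3* was highest in replicate 2 and lowest in replicate 1. The median of the macrophage list was flat, at 9.96, 9.97 and 9.96, but single genes of it moved in both directions. *Csf1r* fell over tdTOMATO- replicates 1 to 3, with 4934, 4773 and 4569 normalized counts. *Lyz2*, named after its values were seen, rose, with 14376, 16534 and 17922. The interferon list followed the second pattern, with a median of 6.13, 6.68 and 7.12 on the log2 scale in tdTOMATO- replicates 1 to 3. The stromal list did too, with a median of 10.40, 11.71 and 11.79 in the same colonies. In the tdTOMATO+ group *C1qa* and *C1qb* were highest in replicate 3, *C1qc* in replicate 1 and both fragment receptors in replicate 2. *C1ra*, *C1s*, *Colec12* and *C5ar2* were again highest in replicate 3 and lowest in replicate 1, and so was the interferon median, at 6.80, 7.36 and 7.65 in tdTOMATO+ replicates 1 to 3. *Serping1* and *C4b* were highest in replicate 1 and lowest in replicate 2, and so was the stromal median, at 12.24, 11.02 and 11.18. Replicate numbers carry no order, the split was seen in 3 colonies, and it was noticed in these data and not tested.

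**Figure D4:**
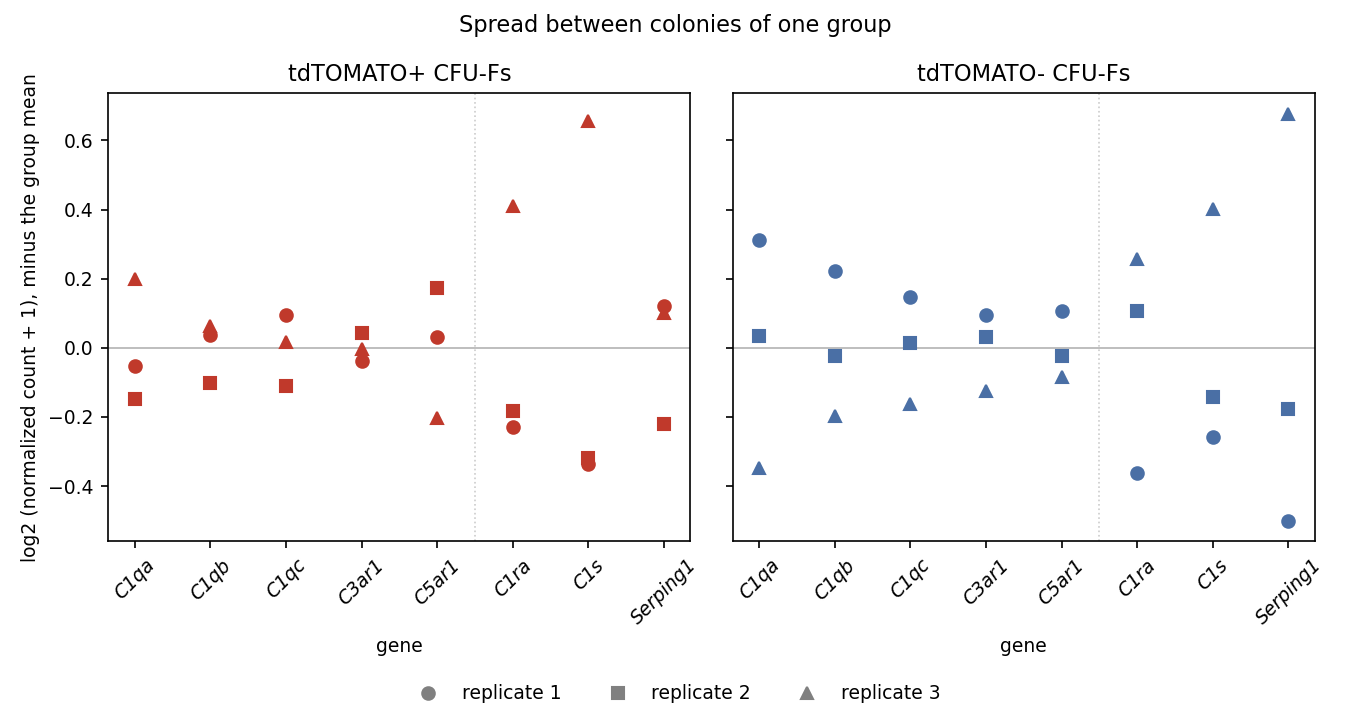
Deviation of each colony from its group mean in log2 of the normalized count plus 1 (vertical axis) for 8 complement genes, with tdTOMATO+ colonies on the left, tdTOMATO- colonies on the right and a symbol for each replicate. In the tdTOMATO- panel replicate 3 (triangles) is lowest for the C1q and receptor genes left of the dotted line and highest for C1ra, C1s and Serping1 right of it.

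Over the 6 colonies, the genes with the pattern most like that of *C1qb* were found where the mean was 50 normalized counts or more, by the Euclidean distance between log2 values centred on each gene's mean. They were *Arl11* (distance 0.18), the inflammasome adaptor *Pycard* (0.21), the growth factor *Igf1* (0.24), the phosphatase *Ptpn6* (0.25) and *C1qc* (0.25). *C3ar1* lay at 0.29 and *C1qa* at 0.30, while *Serping1* lay at 1.28. For *C3* the closest were the cytokine *Il11* (0.36), *Ms4a4d* (0.41), clusterin, *Clu* (0.54), and the stromal growth factors *Kitl* (0.56) and *Angpt1* (0.56). *Serping1* lay at 1.17 from *C3*, and *C1qb* at 1.58. *C3* itself, with a mean of 47.7 normalized counts in tdTOMATO+ and 38.3 in tdTOMATO- colonies, was below the limit of 50. Counting error at this level is part of the distances from *C3*. All the distances describe these 6 libraries, which share one normalization.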

How the data were processed

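RNA of 3 tdTOMATO+ and 3 tdTOMATO- CFU-Fs was compared, grouped by the sample titles. The authors deposited 1 signal value per gene and library, its normalized count. By the paper's methods, reads were trimmed with TrimGalore and Cutadapt (20 nt or longer kept), aligned with STAR to GRCm38 and counted with HTSeq at single locations. Genes reaching 10 reads in 1 library or more were kept, and counts were divided by DESeq2 size factors. Tool versions and the strand setting are not given in the sources used here, so reads of overlapping antisense genes could not be told apart. The authors' columns of fold change and p-values, and their gene ontology sheets, were not used.

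All 14735 genes were tested with limma 3.58.1 (R 4.3.3, trend and robust) on log2 of the normalized count plus 1. Every value was a whole multiple of 1 step per library (100% within 0.001), so reads were recovered and tested with edgeR 4.0.16 (quasi-likelihood, TMM) and DESeq2 1.42.0 as alternatives. For replicate 3 of each group the step is close to 1, and recovery rests on the unrounded values. *RP23-81C12.3* took 5.28% to 8.19% of reads. The tests were tested on simulated data. The other alternatives were pseudocounts of 0.5 and 8, a mean of at least 30, library totals, no trend, a replicate block and leaving out each colony. Exon lengths are from GENCODE M21, and sequences from RefSeq.

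The members and gene lists were chosen with earlier results of these data known. Genes named are the 9 members, other complement genes called by limma, the gene with the smallest p and that with the highest mean in each role, 5 reference genes, and the 5 nearest to *C1qb* and to *C3*. A further complement gene, counted in the totals of its list, is not reported here.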

Additional observations from a re-analysis of the deposited data

How the results depend on the processing

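Of 126 fits of a member under another setting, 100 kept direction and call, 21 lost the call, 3 gained it and 2 reversed, both for *C3*, at -0.023 without tdTOMATO+ replicate 1 and -0.018 without tdTOMATO- replicate 1. The 100 include fits in which an uncalled member stayed uncalled, and only the 5 called members could lose a call. Of 14 settings each, the call was kept in 8 for *C1qa*, 10 for *C1qb*, 10 for *C1qc*, 12 for *C3ar1* and 9 for *C5ar1*. Leaving out 1 colony at a time gave 0 to 5 members called higher, 0 to 7 of the complement list, and 1 to 178 higher and 0 to 44 lower of all genes, against 177 and 21 with all colonies, and *C3* ranged from -0.023 to 0.57. With no trend 0 members, 0 of the list, and 1 gene higher and 0 lower were called. DESeq2 called 7 members, 12 of the list, and 498 genes higher and 159 lower. With the replicate block 4 members, 5 of the list, and 124 genes higher and 24 lower were called, *C1qa* being lost (limma adjusted p = 0.114). Same-numbered colonies correlated at 0.10, 0.01 and 0.20 over 11672 genes, and colonies of different number at -0.15 to 0.09. Not every colony correlated best with its own number. Whether equal numbers mark a shared mouse or batch was not tested. Against *Cd68* alone, chosen after seeing the data, the differences were 0.09 for *C1qa*, -0.04 for *C1qb* and -0.21 for *C1qc*, and *C3* against the mean of the stromal list gave 0.52. The causes were not tested. No scaling moved the median of all genes by over 0.1. At this depth, differences in *C3*, with 20 to 69 reads, were detectable only if large.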
